A study of Rattus norvegicus with 12 samples.

Results

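Immediate early genes and the genes of MAP kinase phosphatases were examined in whole lung of diabetic and control rats. The 10 genes were Fos, Jun, Junb, Egr1, Atf3, Ier3, Btg2, Dusp1, Dusp5 and Dusp6, and every probe set was taken that the platform annotation of the Affymetrix RAE 230A array assigns to 1 of them alone. This gave 15 of the 15866 probe sets that are not Affymetrix controls, for 9 of the 10 genes. There were 3 probe sets each for Jun and Dusp6, 2 each for Fos and Dusp1, and 1 each for Junb, Egr1, Atf3, Ier3 and Dusp5. Btg2 matched none of the annotated probe sets and its RNA was not analysed here. The 7 diabetic rats were male Wistar animals made diabetic with streptozotocin, a toxin of the insulin-producing beta cells, at an age of 8 weeks. The 5 control rats were male Wistar animals that had received intraperitoneal buffer at the same age. Lungs of both groups were taken at 12 weeks, after 4 weeks of diabetes in the treated animals and an overnight fast. Each array held RNA of 1 animal, and since whole lung was used, fewer cells of a type and less RNA per cell cannot be told apart.

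Immediate early genes are transcribed within minutes of a growth factor, hormone or stress signal, without the need for new protein. Growth factor signals reach them largely through the MAP kinases ERK, JNK and p38, which activate transcription factors already bound at their promoters, such as serum response factor at CArG boxes and CREB at cyclic AMP response elements. Fos, Jun and Junb encode subunits of the transcription factor AP-1, Egr1 a zinc finger factor and Atf3 a stress-induced member of the ATF/CREB family. Ier3 encodes a short-lived regulator of cell survival, and Btg2 an antiproliferative protein of the BTG and TOB family. The dual-specificity phosphatases close the loop. DUSP1 removes the activating phosphates of MAP kinases in the nucleus, DUSP5 acts on nuclear ERK and DUSP6 on ERK in the cytoplasm.

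Promoter sequence was taken from RefSeq (rat assembly GRCr8) for the 250 bases before the annotated start of transcription. Of the 10 genes, 6 had such an entry (Junb, Egr1, Btg2, Dusp1, Dusp5 and Dusp6). The window of Dusp6 ends at base 35979603 of chromosome 7, while the gene is annotated from base 35979502. Part of that window therefore lies within the annotated gene, and the search of Dusp6 refers to this window only. CArG boxes were found in Egr1 and Dusp5, and the full cyclic AMP response element TGACGTCA in Btg2 and Dusp1, with both strands searched. A CArG box occurred in 1.5% and TGACGTCA in 1.59% of the 33469 promoter windows of the same length. The sites of Egr1 lie at -105 to -96 and -83 to -74 from the start and those of Dusp5 at -82 to -73 and -72 to -63, so those of Dusp5 adjoin without a gap. The element of Dusp1 lies at -124 to -117 and that of Btg2 at -201 to -194. The AP-1 motif TGANTCA, present in 6.34% of all windows, and the EGR motif GCGTGGGCG, present in 0.478%, matched none of the 6 windows. The TATA box TATAAA, present in 12.9% of all windows, was found in Junb alone, at -49 to -44. A match here is a match of letters and was not tested as a binding site. Egr1, Dusp5 and Dusp1 are shown because they hold the CArG boxes and response elements found among the measured genes. The CArG boxes of Egr1 and Dusp5 and the TGACGTCA of Dusp1 are in capitals.
Egr1 (chr18:26736828-26737077, + strand): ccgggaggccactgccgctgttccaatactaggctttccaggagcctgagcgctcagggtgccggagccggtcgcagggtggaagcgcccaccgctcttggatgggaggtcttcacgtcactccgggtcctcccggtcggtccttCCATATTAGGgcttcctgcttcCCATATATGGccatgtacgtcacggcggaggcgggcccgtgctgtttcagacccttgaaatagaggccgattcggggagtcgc
Dusp5 (chr1:262543524-262543773, + strand): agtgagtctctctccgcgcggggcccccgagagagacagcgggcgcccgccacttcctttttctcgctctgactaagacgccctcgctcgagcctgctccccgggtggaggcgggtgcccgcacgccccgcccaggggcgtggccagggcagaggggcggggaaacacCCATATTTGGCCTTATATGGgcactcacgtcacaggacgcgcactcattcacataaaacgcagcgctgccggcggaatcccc
Dusp1 (chr10:17184603-17184852, + strand): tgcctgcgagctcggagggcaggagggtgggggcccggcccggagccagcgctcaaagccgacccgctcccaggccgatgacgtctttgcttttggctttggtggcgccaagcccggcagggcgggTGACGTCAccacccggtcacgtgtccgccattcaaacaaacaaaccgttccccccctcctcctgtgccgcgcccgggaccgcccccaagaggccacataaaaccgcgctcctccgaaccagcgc

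Values are MAS 5.0 signals on a linear scale, which the authors scaled so that each array had the same trimmed mean, and different probe sets are not compared in level. The groups were compared on log2 signals with limma, on the 9520 probe sets that remained once the dimmest 40% (by mean over all arrays, below 170.0) had been dropped. The median signal per array was 253.5 to 266.3 in diabetic and 260.2 to 272.8 in control lung (exact permutation test, two-sided, p = 0.133). The 3'/5' signal ratio of the GAPDH control probes, a measure of RNA integrity, was 1.10 to 1.30 in diabetic and 1.23 to 1.44 in control lung (exact permutation test, two-sided, p = 0.00505). That of beta-actin was 1.77 to 2.85 in diabetic and 1.63 to 2.75 in control lung (exact permutation test, two-sided, p = 0.922). Among the marker lists of cell types and other tissues, only that of fibroblasts (12 genes) had summed signals that did not overlap between the groups, with 17531 to 30740 in diabetic and 34784 to 36198 in control lung. Of the 11 tested fibroblast genes, an unadjusted p below 0.05 was reached by 7 with a lower and 1 with a higher mean, and 0 passed an adjusted p of 0.05 in limma. A sum follows the brightest genes of a list, so single genes were also counted. By the same unadjusted p, 2 of 7 alveolar type I genes were lower and 1 higher, and 2 of 9 lymphocyte genes were lower. Of 7 endothelial and of 3 erythroid genes 1 each was lower, and of 7 alveolar type II genes 1 was higher. Of these, 0 passed an adjusted p of 0.05. A gene counted if any of its tested probe sets passed. By that unadjusted p, 7.75% of all probe sets were higher and 8.68% lower. The 7 macrophage genes on the array summed to 25661 to 33965 in diabetic and 25470 to 33890 in control lung. Most of this sum is Lyz2, with a mean of 24767 in diabetic and 26340 in control lung. At an unadjusted p below 0.05 in limma, 2 of the 7 were higher and 0 lower. These were Cd14, with a log2 difference of 0.61 (SE 0.18), and Csf1r, with 0.29 (SE 0.12), and 0 passed an adjusted p of 0.05. None of the 11 heart and skeletal muscle genes or of the 5 fat genes on the array exceeded the limit for testing. The part of these differences in the results below was not tested.

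Among the 14 probe sets that were bright enough to be tested, the brightest of Ier3, Dusp5, Dusp1 and Dusp6 and a second of Dusp6 had the smallest p, and on those brightest probe sets the diabetic means were 1.24 to 1.52 times the control means. By an adjusted p of 0.05 (limma, Benjamini-Hochberg over all probe sets), 0 of the 14 passed, against 0.168% of all probe sets tested. By an unadjusted p under 0.05, 6 of the 14 were higher in diabetic lung, against 7.75% of all probe sets, and 0 were lower, against 8.68%. The 6 stand for 5 of the 9 genes, which were Fos, Ier3, Dusp1, Dusp5 and Dusp6. Of these, Fos had a control mean of 160.2, below the limit of 170.0 for testing, and a diabetic mean of 238. It was thus tested only through its diabetic signals, and its place in these counts is no support for a difference. All 7 diabetic signals exceeded all 5 control signals for 1 of the 14, Ier3, against 0.924% of all probe sets, and all lay below for 0 of the 14, against 1.11%. The median log2 difference of the 14 was 0.12, and that of all probe sets was -0.01. Probe sets of 1 gene share their transcript, so the 14 are not independent.

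**Figure D1:**
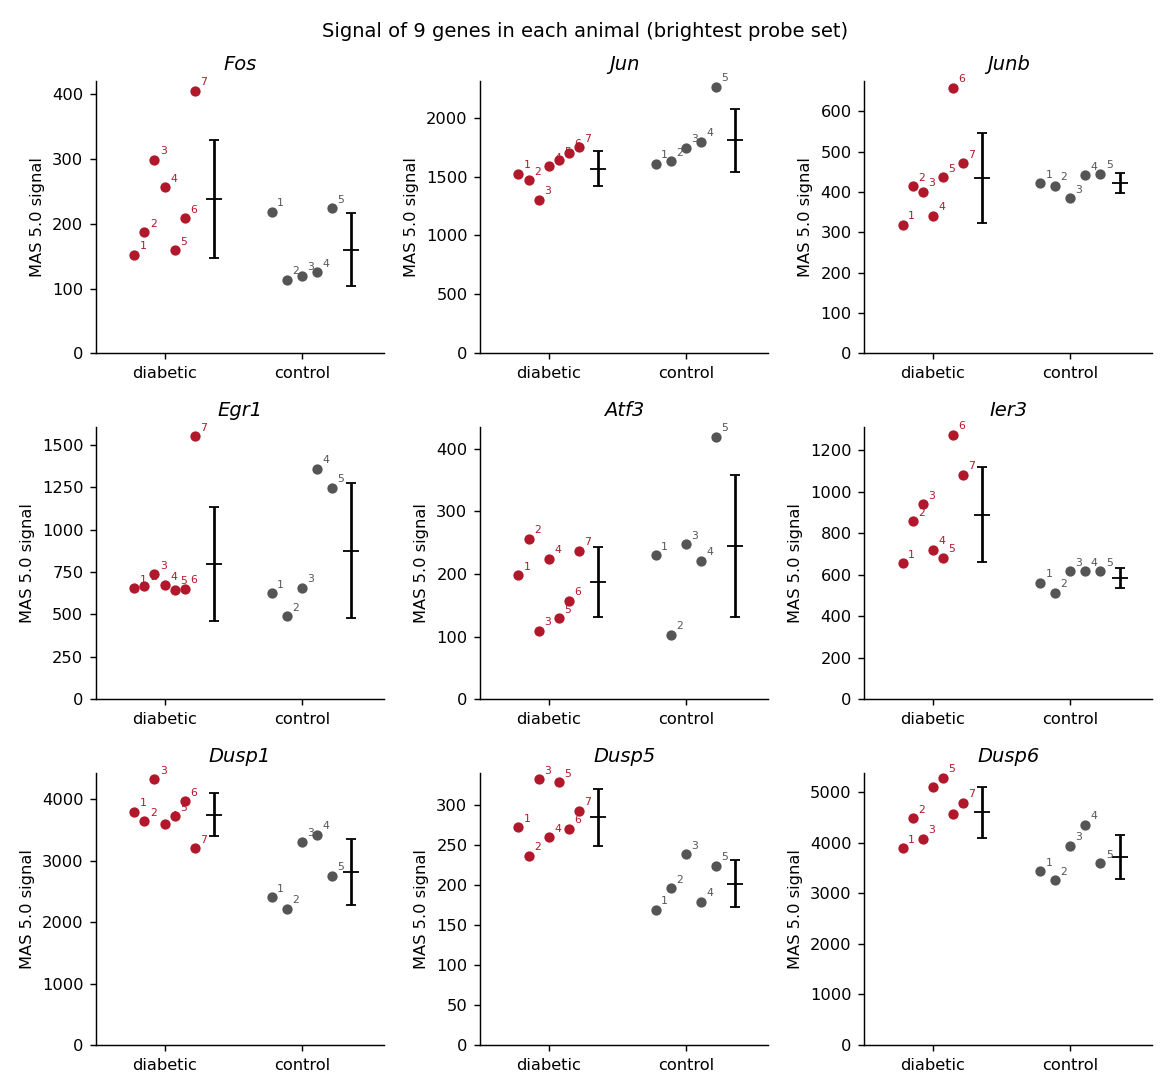
MAS 5.0 signal (linear axis from 0) of the brightest probe set of 9 genes in 7 diabetic (red) and 5 control (grey) animals, numbered by animal, with mean and SD in black. All diabetic animals lie above all control animals for Ier3, and Egr1 of diabetic animal 7 (1552) stands apart from the other 6 diabetic animals (645 to 736).

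Ier3 had the clearest separation of the groups. Its signal was 656, 858, 940.3, 721, 682, 1274 and 1081 in diabetic animals 1 to 7, against 560.3, 512, 616, 616 and 617 in control animals 1 to 5. The groups did not overlap, and diabetic animals 6 and 7 were the highest. The mean was 887 ± 229 (SD, n = 7) in diabetic and 584 ± 47.0 (SD, n = 5) in control lung, with a coefficient of variation of 25.8% in diabetic and 8.05% in control lung. The log2 difference was 0.57 (SE 0.15), with an adjusted p of 0.0926 in limma. With the GAPDH ratio as a covariate the difference was 0.93, with an adjusted p of 0.0324 in limma, and over the 22 alternatives the adjusted p was 0.0324 to 0.208. Diabetic animal 6, with the highest signal, also had the highest ratio of beta-actin (2.85) and the highest GAPDH ratio of the diabetic animals (1.30). It was the only diabetic animal with a GAPDH ratio in the control range of 1.23 to 1.44. This covariate is thus confounded with group. How far the fit with it depends on diabetic animal 6 was not tested. Without this animal, in the fit without the covariate, the log2 difference was 0.47, with an adjusted p of 0.0961 in limma.

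Dusp5, the phosphatase of nuclear ERK, had the smallest p of the 14 probe sets. Its signal was 272, 237, 332, 259.7, 329, 270.3 and 293 in diabetic animals 1 to 7, against 169, 196, 239, 179 and 224 in control animals 1 to 5. The ranges overlapped only between diabetic animal 2 (237) and control animal 3 (239), and 6 of the 7 diabetic signals lay above every control signal. The mean was 285 ± 35.6 (SD, n = 7) in diabetic and 201.5 ± 29.4 (SD, n = 5) in control lung, a log2 difference of 0.50 (SE 0.12) with an adjusted p of 0.0747 in limma. This probe set is dim, at the 48.5th percentile of mean signal among the probe sets of the array. With the GAPDH ratio as a covariate the log2 difference was 0.34 with an adjusted p of 0.349, and over the 22 alternatives the adjusted p in limma was 0.0626 to 0.349.

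Dusp1, which acts on ERK, JNK and p38 and is also a well-known target of glucocorticoids, had a higher diabetic mean on 1 of its 2 probe sets only. On its brighter probe set (1368146_at) the signal was 3801, 3648, 4330.5, 3592, 3725, 3968 and 3200.4 in diabetic animals 1 to 7, against 2403, 2216, 3313, 3425 and 2757 in control animals 1 to 5. Of the 7 diabetic animals 6 lay above all control animals, and diabetic animal 7 lay within the control range. The mean was 3752 ± 348 (SD, n = 7) in diabetic and 2823 ± 537 (SD, n = 5) in control lung, a log2 difference of 0.43 (SE 0.11) with an adjusted p of 0.0886 in limma. The dimmer probe set (1368147_at) gave another picture, with 499, 337, 404, 416, 489, 642 and 588 in diabetic animals 1 to 7 and 475, 506, 434, 647 and 566 in control animals 1 to 5. Here the groups overlapped, with diabetic animals 2, 3 and 4 the lowest of the 12, and the log2 difference was -0.14 (SE 0.15) with an adjusted p of 0.677 in limma.

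The disagreement of the Dusp1 probe sets was examined as a ratio within each array, the brighter over the dimmer. The log2 ratio averaged 2.99 (2.45 to 3.44) in diabetic and 2.42 (2.13 to 2.93) in control lung, a difference of 0.57 (exact permutation test, two-sided, p = 0.0189). Over the 8 pairs of probe sets of the same gene that were compared in this way, this p became 0.151 after Benjamini-Hochberg adjustment. With group means removed, the probe sets of Dusp1 had r = 0.03 over the 12 arrays, against 0.67 to 0.88 for the 3 pairs of Jun, 0.25 to 0.70 for the 3 pairs of Dusp6 and -0.20 for the pair of Fos, of which 1 probe set was below the limit for testing. Both Dusp1 probe sets carry the same accession in the annotation, and which of them follows the mature transcript was not tested.

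**Figure D2:**
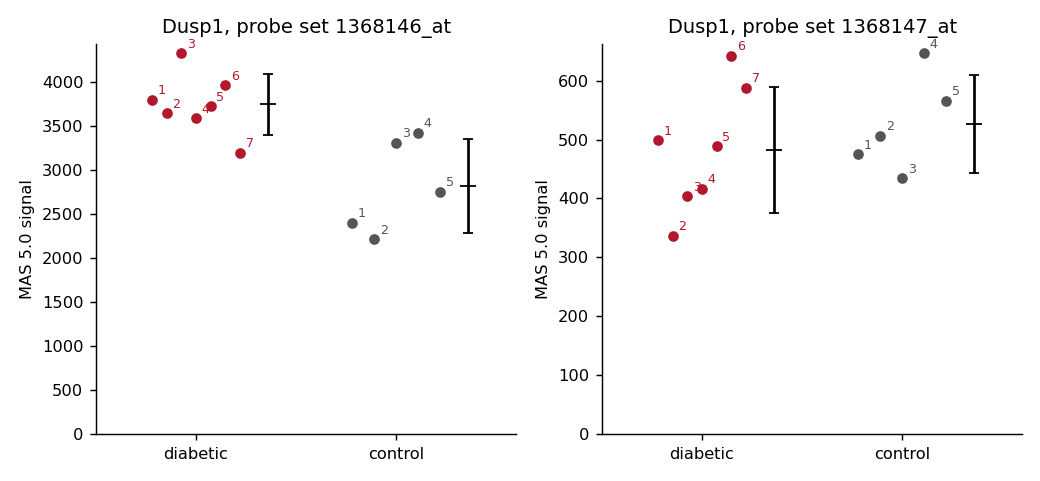
MAS 5.0 signal (linear axes from 0) of the 2 Dusp1 probe sets in 7 diabetic (red) and 5 control (grey) animals, numbered by animal, with mean and SD in black. The diabetic mean is above the control mean on 1368146_at (3752 and 2823) and not on 1368147_at (482 and 525.7).

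Dusp6, the phosphatase of cytoplasmic ERK, pointed the same way on all 3 probe sets. On the brightest (1387024_at) the signal was 3894, 4484, 4086, 5108, 5290.3, 4582 and 4798 in diabetic animals 1 to 7, against 3436, 3264, 3946, 4359.7 and 3593 in control animals 1 to 5. Of the 7 diabetic animals 5 lay above all control animals, and the lowest, animals 1 and 3, lay within the control range. The mean was 4606 ± 508 (SD, n = 7) in diabetic and 3720.0 ± 437 (SD, n = 5) in control lung, a log2 difference of 0.31 (SE 0.09) with an adjusted p of 0.124 in limma. Probe set 1377064_at ranged from 689.5 to 1099 (median 881) in diabetic and from 602 to 790.5 (median 717) in control lung, a log2 difference of 0.35 (SE 0.11) with an adjusted p of 0.148 in limma. Probe set 1382778_at had 1593 to 2384 (median 1908) in diabetic and 1282 to 2080.5 (median 1558) in control lung, and its log2 difference was 0.23 (SE 0.12), with an unadjusted p of 0.0705 in limma, and 0.14 without control animal 5.

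The AP-1 genes did not share a direction. The tested Fos probe set (1375043_at) had 152, 187, 299, 256, 159, 209 and 405 in diabetic animals 1 to 7, against 218, 114, 119.7, 126 and 224 in control animals 1 to 5. Diabetic animals 3, 4 and 7 lay above all controls and the other 4 within the control range. The mean was 238 ± 90.5 (SD, n = 7) in diabetic and 160.2 ± 55.8 (SD, n = 5) in control lung, a log2 difference of 0.56 (SE 0.25) with an unadjusted p of 0.0429 and an adjusted p of 0.288 in limma. The exact permutation test of the same values gave p = 0.0859 (two-sided). This probe set is dim, at the 42.5th percentile of mean signal among the probe sets of the array. Its control mean lies below the limit of 170.0 for testing, so it was tested only through its diabetic signals. The other Fos probe set (1371283_at) was below the limit for testing, with 19.2 to 82.5 in diabetic and 18.4 to 93.5 in control lung.

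Jun, the main partner of FOS, was lower in mean on each of its 3 probe sets, without passing the test on any. The brightest (1369788_s_at) had 1526, 1469, 1304, 1589, 1638, 1701 and 1751 in diabetic animals 1 to 7, against 1609.9, 1628, 1746, 1797 and 2263 in control animals 1 to 5. The groups overlapped, 4 of the 7 diabetic animals lay below all controls, and control animal 5 was the highest of the 12. The log2 difference was -0.20 (SE 0.10) with an unadjusted p of 0.0528 and an adjusted p of 0.310 in limma, and -0.12 without control animal 5. Probe sets 1374404_at and 1389528_s_at had log2 differences of -0.20 (SE 0.10) and -0.13 (SE 0.11). Junb, a partner of FOS with weaker activating capacity than JUN, had 319 to 659 (median 415) in diabetic and 384 to 446 (median 422) in control lung. Its log2 difference was 0.01 (SE 0.14), but its coefficient of variation was 25.7% in diabetic and 5.85% in control lung, with diabetic animal 6 at 659 and the other 6 at 319 to 472.

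Egr1 was marked by single animals rather than by group. Its signal was 654, 669.9, 736, 671, 645, 651 and 1552 in diabetic animals 1 to 7, against 626, 489.6, 657, 1359.8 and 1247 in control animals 1 to 5. Diabetic animal 7 and control animals 4 and 5 were the 3 highest of the 12, and no other animal exceeded 736. The log2 difference was -0.09 (SE 0.26, adjusted p = 0.894 in limma), and it was 0.10 without control animal 4 and -0.27 without diabetic animal 7. Atf3, a factor induced by many kinds of cell stress, had 198, 256, 109, 224, 129.6, 157 and 237 in diabetic animals 1 to 7, against 230.1, 103, 248, 221 and 419 in control animals 1 to 5. All 7 diabetic signals lay within the control range, and the log2 difference was -0.31 (SE 0.29, adjusted p = 0.630 in limma). It was -0.08 without control animal 5 and -0.59 without control animal 2.

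**Figure D3:**
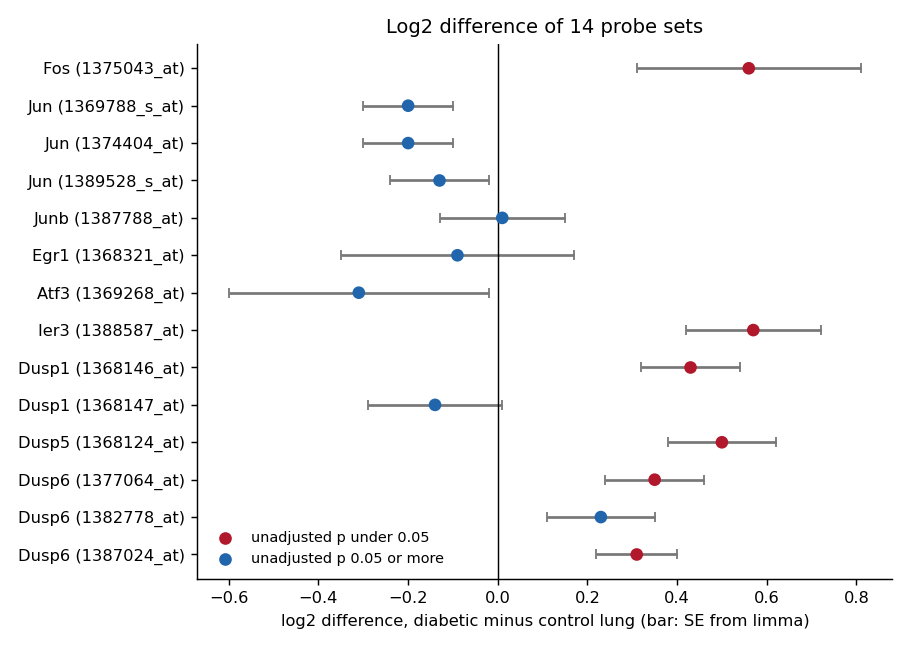
Log2 difference (diabetic minus control lung) of the 14 tested probe sets, with the standard error from limma as bars. Those in red, with an unadjusted p under 0.05, belong to Fos, Ier3, Dusp1, Dusp5 and Dusp6 and lie at 0.31 to 0.57, and the 3 of Jun lie at -0.20 to -0.13.

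Whether the genes varied together from animal to animal was examined on the brightest probe set of each, with the mean of each group removed. Over the 36 pairs of the 9 genes, Pearson's r ranged from -0.27 to 0.81 with a median of 0.21, and 30 of the 36 were above 0. After Benjamini-Hochberg adjustment over the 36 pairs 0 passed 0.05 (permutation test within groups, 100000 resamples, two-sided), and 1 had an unadjusted p under 0.05 by Pearson's r. This was Junb with Ier3, with r = 0.81 (permutation p = 0.0111, adjusted 0.401) and rho = 0.61 (permutation p = 0.0842, adjusted 0.595). Without diabetic animals 1 and 6, those farthest from the median of Junb, r was 0.46, so the relation rests on them. By rho, 1 pair had an unadjusted p under 0.05, and it was a different one, Fos with Ier3. Its rho was 0.64 (permutation p = 0.0364, adjusted 0.595) and its r was 0.45 (permutation p = 0.176, adjusted 0.838). Without diabetic animal 7 and control animal 5 the r of Fos with Ier3 was 0.29. When diabetic animal 6 was left out, 1 other pair passed, Egr1 with Ier3 (r = 0.69, permutation p = 0.00022, adjusted 0.00792). This adjustment covers the 36 pairs of that fit alone, not the other fits that left out 1 animal. Over all 12 arrays Egr1 with Ier3 had r = 0.42 (permutation p = 0.115, adjusted 0.704). Without diabetic animal 7 and control animal 4, and with diabetic animal 6 kept, its r was 0.23. Within the 7 diabetic animals alone, Junb with Ier3 had an r of 0.85 (exact permutation p = 0.0113, adjusted over the 36 pairs 0.204) and rho was 0.75 (exact permutation p = 0.0663, adjusted 0.596).

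The transcription factor genes Fos, Jun, Egr1 and Atf3 had r = 0.54 to 0.61 in 4 of their pairs. These were Fos with Egr1 (0.54), Egr1 with Atf3 (0.54), Jun with Egr1 (0.59) and Jun with Atf3 (0.61), with unadjusted permutation p of 0.0834, 0.117, 0.0655 and 0.0749 and an adjusted p of 0.704 each. Their rho was 0.51, 0.46, 0.47 and 0.45, with unadjusted permutation p of 0.0962, 0.157, 0.143 and 0.164 and an adjusted p of 0.595 each. Leaving out the 2 animals farthest from the median of the first gene gave r = 0.03 for Fos with Egr1, 0.68 for Egr1 with Atf3, 0.62 for Jun with Egr1 and 0.24 for Jun with Atf3. Of these 4 pairs, then, those that include Fos or join Jun with Atf3 depended on 2 animals. The remaining pairs of these factors were Fos with Jun, at r = 0.25, and Fos with Atf3, at r = 0.37. For the phosphatase genes r was 0.31 for Dusp1 with Dusp5, 0.34 for Dusp1 with Dusp6 and 0.07 for Dusp5 with Dusp6, with unadjusted permutation p of 0.377, 0.319 and 0.836 and adjusted p of 0.857, 0.857 and 0.961. Their rho was 0.27, 0.31 and -0.01, with unadjusted permutation p of 0.448, 0.377 and 0.975 and adjusted p of 0.864, 0.855 and 1. Leaving out the 2 farthest animals gave 0.59, -0.09 and 0.18. Fos with Dusp1 had the lowest r of the 36, at -0.27. Within the diabetic animals alone, Fos with Egr1 had r = 0.80 (exact permutation p = 0.00377, adjusted 0.136) and rho = 0.82 (exact permutation p = 0.0341, adjusted 0.596), and r was 0.63 without diabetic animals 3 and 7. The other 2 of the 4 pairs with an unadjusted p under 0.05 in diabetic animals ran the opposite way. Atf3 with Dusp5 had r = -0.82 (exact permutation p = 0.027, adjusted 0.309) and rho = -0.75 (exact permutation p = 0.0663, adjusted 0.596), and Atf3 with Dusp1 had r = -0.77 (exact permutation p = 0.0343, adjusted 0.309) and rho = -0.79 (exact permutation p = 0.048, adjusted 0.596). Without diabetic animals 3 and 5 these r were -0.32 and -0.71. Jun with Egr1 had r = 0.39 (exact permutation p = 0.34, adjusted 0.957) and rho = -0.11 within the diabetic animals, and r = -0.61 without animals 3 and 7. Egr1 with Atf3 had r = 0.32 (exact permutation p = 0.598, adjusted 0.957) and rho = 0.32 there, and r = 0.93 without animals 3 and 7.

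**Figure D4:**
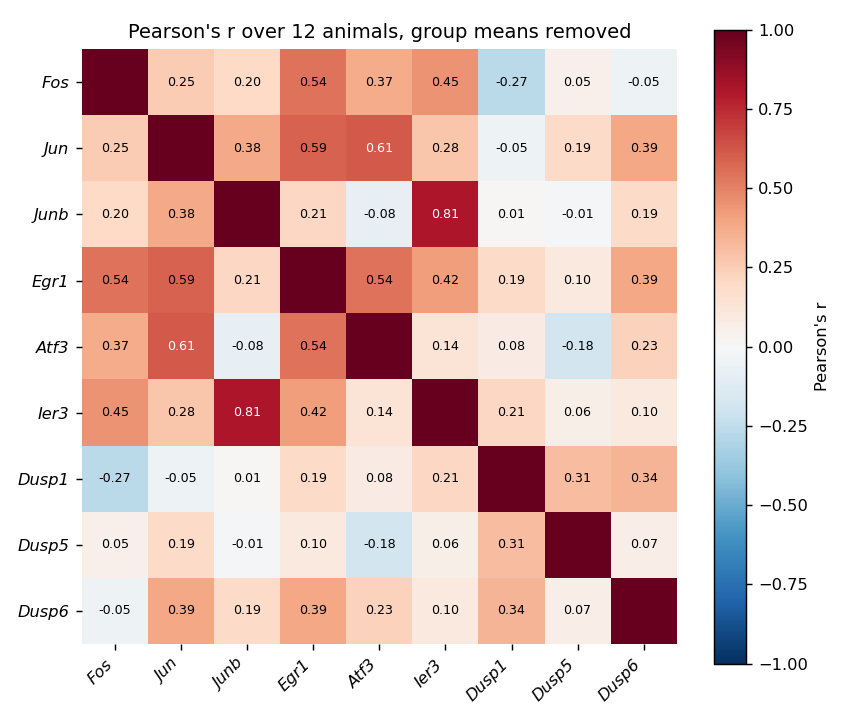
Pearson's r between the log2 signals of 9 genes (brightest probe set) over 12 animals with group means removed, on a colour scale from -1 to 1. Junb with Ier3 stands out at 0.81, and the block of Fos, Jun, Egr1 and Atf3 holds 0.25 to 0.61.

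Each gene was also set against all probe sets tested that name another single gene, about 8040 of them, to find those whose pattern over the 12 arrays was most like it after removal of the group means. These r values are ranked from many and carry no test, and for each of the 9 genes the closest pattern had an r of 0.86 to 0.95. Closest to Egr1 was Nr4a1 (r = 0.88), an immediate early gene that encodes an orphan nuclear receptor, followed by Batf3 (0.85), an AP-1 family member, and Nudt5 (0.83). The signal of Nr4a1 was 627, 552, 692, 769, 692, 566 and 1008 in diabetic animals 1 to 7, against 461, 431, 579, 902 and 649.8 in control animals 1 to 5. As for Egr1, diabetic animal 7 and control animal 4 were the highest of their groups. The group means of Nr4a1 were 701 ± 155 (SD, n = 7) in diabetic and 604 ± 188 (SD, n = 5) in control lung, a log2 difference of 0.24 (SE 0.18, adjusted p = 0.533 in limma).

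**Figure D5:**
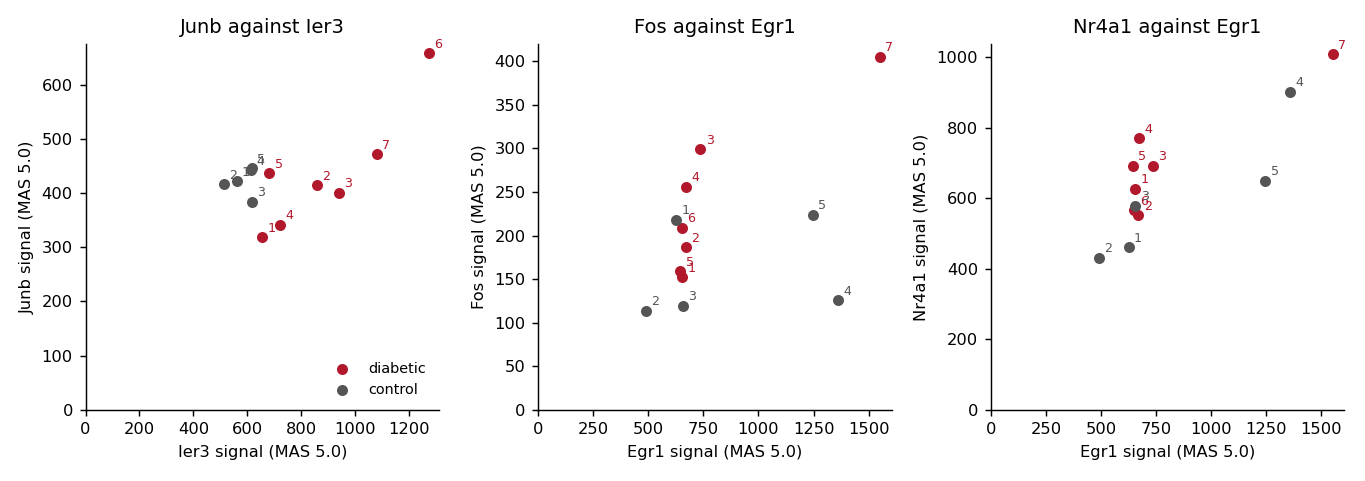
MAS 5.0 signals (linear axes from 0) of Junb against Ier3, Fos against Egr1 and Nr4a1 against Egr1 in 7 diabetic (red) and 5 control (grey) animals, numbered by animal. Diabetic animal 6 is highest for Junb (659) and Ier3 (1274), and diabetic animal 7 for Egr1 (1552), Fos (405) and Nr4a1 (1008).

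For none of the 9 genes was another of them among the 3 closest patterns. Junb ranked 21 among 8041 probe sets by its r with Ier3, and Ier3 ranked 60 by its r with Junb. Egr1 ranked 187 by its r with Fos, and Jun ranked 156 by its r with Egr1. The closest pattern was Tmod4 (0.92) for Fos, Zfp821 (0.87) for Jun, Amotl1 (0.95) for Junb, Ppa2 (0.92) for Atf3 and Fam193a (0.92) for Ier3. For the phosphatase genes it was Surf2 (0.86) for Dusp1, Prickle2 (0.86) for Dusp5 and Tcf20 (0.90) for Dusp6. By animal, control animal 2 was the lowest of its group for 6 of the 9 genes (Fos, Egr1, Atf3, Ier3, Dusp1 and Dusp6), and control animal 5 the highest for 5 (Fos, Jun, Junb, Atf3 and Ier3). Diabetic animal 7 was the highest of its group for Fos, Jun and Egr1 and the lowest for Dusp1, and diabetic animal 1 was the lowest for Fos, Junb, Ier3 and Dusp6.

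Among 34 other immediate early genes tested, 2 were higher in diabetic lung by an adjusted p of 0.05 in limma and 0 were lower. Of all probe sets tested, 0.168% passed it in either direction. An unadjusted p below 0.05 was reached by 5 with a higher and 1 with a lower mean. The median log2 difference of the list was 0.10 here. In this list and in those below, a gene was counted if any of its tested probe sets passed. At an unadjusted p under 0.05 in limma, 7.75% of all probe sets tested were higher and 8.68% lower. Ccn2, which encodes a secreted matrix protein, had 3935 to 5602 in diabetic and 2070.5 to 3188 in control lung, a log2 difference of 0.81 (SE 0.12, adjusted p = 0.0184 in limma). Klf10, a zinc finger factor induced by TGF-beta, had 1025 to 2169 in diabetic and 674 to 870.0 in control lung, a log2 difference of 0.82 (SE 0.15, adjusted p = 0.0482 in limma). The call of Klf10 was lost in 12 of 22 alternatives, with adjusted p of 0.00528 to 0.125 over all 22, while that of Ccn2 was not lost in any of them. Gadd45b, a stress sensor upstream of p38 and JNK, had a log2 difference of 0.81 (SE 0.16, adjusted p = 0.0540 in limma). It passed 0.05 in 7 of the 22 alternatives, with adjusted p of 0.0151 to 0.141 over all 22. Zfp36l2, which promotes decay of AU-rich mRNA, had 0.34 (SE 0.09, adjusted p = 0.0975 in limma). The paper lists Ccn2 (as Ctgf), Klf10 and Gadd45b as increased on these same arrays. Since the list was chosen with earlier results known, their presence in it is no independent support.

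Genes of other brakes on MAP kinase signalling were tested as a list of 10, of which 0 passed an adjusted p of 0.05 in limma. An unadjusted p below 0.05 was reached by 4 with a higher mean, against 7.75% of all probe sets, and by 1 with a lower mean, against 8.68%. The phosphatase gene Ppm1b had its smallest p on its probe set of middle brightness, with 378 to 481 in diabetic and 242 to 347 in control lung. The log2 difference there was 0.52 (SE 0.11, adjusted p = 0.0621 in limma). It was 0.26 (SE 0.08) on the brightest and 0.17 (SE 0.13) on the dimmest probe set of Ppm1b. Spry1, an inhibitor of receptor tyrosine kinase signalling to ERK, had 681 to 973 in diabetic and 525 to 645 in control lung, a log2 difference of 0.44 (SE 0.10, adjusted p = 0.0701 in limma). All diabetic animals lay above all control animals for Spry1 and, on the probe set of smallest p, for Ppm1b. Ptprr, a tyrosine phosphatase of ERK, had 0.42 (SE 0.11) and Pebp1 had -0.30 (SE 0.08), with an adjusted p of 0.0926 and 0.107 in limma. Of 8 other dual-specificity phosphatase genes, 0 passed an unadjusted p of 0.05, and their log2 differences ranged from -0.17 for Dusp19 to 0.30 for Dusp26.

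Of 24 genes of MAP kinases and their activators tested, 0 passed an adjusted p of 0.05 in limma, and an unadjusted p below 0.05 was reached by 2 with a higher and 4 with a lower mean. Their median log2 difference was -0.01. Mapk6, an atypical MAP kinase, had 490 to 575 in diabetic and 607 to 721 in control lung, a log2 difference of -0.35 (SE 0.07, adjusted p = 0.0552 in limma), and its groups did not overlap. The 2 higher genes were Araf and Map3k8. Araf, a RAF kinase, had 0.50 (SE 0.17) on its dimmer and -0.09 (SE 0.07) on its brighter probe set. Map3k8, a kinase upstream of ERK, had 0.40 (SE 0.17). Its mean was 206.8 in diabetic and 155.9 in control lung, with a limit of 170.0 for testing, so it was tested only through its diabetic signals. Mknk1, a kinase downstream of ERK and p38, had -0.27 (SE 0.10). Of 6 genes of serum response factor and its partners, 0 passed an unadjusted p of 0.05, with log2 differences of -0.29 for Elk3 to 0.17 for Elk4. Of 7 other AP-1, ATF and CREB genes, Creb1 was higher at an unadjusted p under 0.05, with 0.35 (SE 0.13, adjusted p = 0.189 in limma). In the BTG and TOB family and its partners, to which Btg2 belongs, 2 of 6 were higher at an unadjusted p under 0.05, Btg1 with 0.16 (SE 0.07) and the deadenylase gene Cnot7 with 0.26 (SE 0.12). A list of glucocorticoid-induced genes also held the gene of the glucocorticoid receptor, Nr3c1, and that of an activating enzyme, Hsd11b1. Of its 15 tested genes, 0 passed an adjusted p of 0.05 in limma, and an unadjusted p below 0.05 was reached by 3, all with a higher mean. These were Tsc22d3 (0.43, SE 0.14), the kinase gene Sgk1 (0.27, SE 0.10) and Sult1a1 (0.52, SE 0.24), and the list held none of the 10 genes described first. Sgk1 was also counted among the other immediate early genes above, and Per1, Cebpd, Errfi1 and Nfkbia are in both lists too. The median log2 difference of the list was 0.10, from -0.37 for Errfi1 to 0.52 for Sult1a1. Fkbp5 had 0.33 (SE 0.33), Per1 0.11 (SE 0.18) and Klf9 0.09 (SE 0.19) on its brightest probe set.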

How the data were processed

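The deposited values are intensities, for each probe set the signal that the authors computed with Affymetrix MAS 5.0 and scaled per array. The trimmed mean (without the lowest and highest 2%) was 500.1 on each of the 12 arrays. The signals were transformed to log2 after 1 value at or below 0 was set to 0.1. Gene names came from the platform annotation, updated by Entrez ID for 12754 probe sets, by accession for 2 and by symbol for 33, and 312 probe sets with several genes were tested unnamed. Linear models were fitted with limma 3.58.1 in R 4.3.3, with moderated variances that follow a trend over signal and Benjamini-Hochberg adjustment over 9520 probe sets, and the fit was tested on simulated data. Single values were compared by exact permutation over all 792 splits of the arrays. The study's own test, BAMarray, and the present and absent calls were not used here. Figures were drawn with matplotlib 3.10.9 in python 3.11.15.

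The genes and gene lists were chosen with earlier results of these data known. Named are all probe sets of the 10 genes, from each other list up to 4 genes of smallest unadjusted p under 0.05, and the closest patterns. Nr4a1 was described after its values were seen. Same-numbered animals of the groups are different animals, and their number limits the precision.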

Additional observations from a re-analysis of the deposited data

Results flagged for a closer look

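Each of the 14 tested probe sets was examined for single animals that stand apart from their group, which made 28 comparisons within a group, of which about 1 in 20 would be marked by chance. One signal was marked. Egr1 in diabetic animal 7 was 1552, while the other 6 diabetic animals had 645 to 736. In control lung, animals 4 and 5 had 1359.8 and 1247, and the other 3 had 489.6 to 657. Diabetic animal 7 was also the highest of its group for Fos, at 405, and for Nr4a1, at 1008.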

How the results depend on the processing

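None of the 9 measured genes passed an adjusted p of 0.05 in limma under 21 of 22 alternatives. With the GAPDH 3' to 5' ratio, which is itself confounded with group, as a covariate 1 did, Ier3, and the calls over all probe sets were 288, against 16 as reported. These calls were 25 with quantile normalization, 7 with no filter, 9 with no intensity trend, 80 with array weights and 10 with the replicate number as a block, and ranged from 2 to 30 without 1 animal. They were 8, 6, 6, 5, 27 and 30 without diabetic animals 1, 2, 3, 4, 5 and 6, and 9, 2, 2 and 8 without control animals 1, 2, 4 and 5. Called genes in the other MAP kinase and immediate early lists were 2 as reported, 1 with no filter, with the lowest 20% left out or with no intensity trend, 5 with array weights, 8 with the GAPDH ratio and 1 to 3 without 1 animal. This was 1 without diabetic animals 2, 3, 4 or 7 and without control animals 2, 3, 4 or 5. At an unadjusted p under 0.05, higher genes of the 9 numbered 4 or 5 under each alternative. Lower genes numbered 0 as reported, 1 with no filter, 2 with the replicate block, 2 without diabetic animals 6 and 7, and 0 to 2 without 1 animal (1 without diabetic 4, 6 or 7 or control 1, and 2 without control 2).

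Of the pairs of genes, 0 passed as reported and 0 to 1 without 1 animal. The 1 was Egr1 with Ier3 without diabetic animal 6 (r = 0.69, permutation p = 0.00022, adjusted 0.00792). The adjustment covers the 36 pairs of that fit alone. With diabetic animal 6 kept, and without diabetic animal 7 and control animal 4, its r was 0.23.

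Log2 differences that turned their sign were those of Junb (0.01) to -0.03 with array weights, -0.15 with the replicate block, -0.15 without diabetic animals 6 and 7, and -0.10, -0.02 and -0.03 without diabetic 6, diabetic 7 and control 3 (-0.10 to 0.08 without 1 animal). That of Egr1 (-0.09) turned to 0.20 with array weights and to 0.10 and 0.06 without control 4 and 5 (-0.27 to 0.10 without 1 animal), and that of Atf3 (-0.31) to 0.01 with array weights. With the GAPDH ratio a Jun probe set (1389528_s_at, -0.13) turned to 0.01 and the dimmer Dusp1 probe set (-0.14) to 0.21. For Dusp1 the other probe set gave -0.14 against 0.43, and for Fos the dim one -0.07 against 0.56. The cause was not tested. The replicate block used the 5 numbers that both groups have. Deviations of same-numbered animals correlated at -0.12 to 0.04 over the probe sets kept, which shows no pairing across them. A shared effect on some genes was not tested. The block therefore also left out diabetic animals 6 and 7. Without these, 24 probe sets were called with no block and 10 with it, and 0 of the 9 genes in either case. The number of arrays limits the precision.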
